A study of Homo sapiens with 13 samples.

Results

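The 34 genes described here belong to a pair of related stress programmes, the unfolded protein response of the endoplasmic reticulum (ER) and the integrated stress response run by the transcription factor ATF4. They were chosen by name from a list of symbols, with no measured value in the rule. The list was drawn up with earlier results of these data known, so it is not independent of them. Each symbol matched 1 of the 62703 gene identifiers in both count tables. The amino acid genes of ATF4 were kept apart from the ER genes. The amino acid group has 11 members, 8 enzymes and 3 transporters. The ER group has 14, namely XBP1, 10 chaperones and folding factors, and 3 genes of ER-associated degradation. The last 9 are 7 stress regulators with VLDLR and STC2.

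Messenger RNA selected with poly-T beads was sequenced in 13 libraries of the human ovarian cancer lines SKOV3 and OVCAR3. SKOV3, known for an amplified ERBB2 gene, overexpressed RSF1delUAB or RSF1 or carried a control vector, with 3 libraries per group and no treatment listed. RSF1 is a chromatin remodelling subunit that works with the ATPase SMARCA5. Its UAB region binds ubiquitinated histone H2A, and the RSF1delUAB construct lacks it. OVCAR3 expressed a UAB peptide or a scramble control, with 2 libraries per group. Both OVCAR3 groups had 2000 ng/mL doxycycline for 6 days, so the lines differ in treatment as well as in origin. The labels give no promoter and no clone number for the constructs, and do not state that replicates came from separate cultures. The p-values then measure the spread between these libraries, which may be technical. In such bulk libraries fewer cells expressing a gene and less of its RNA per cell cannot be told apart.

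When unfolded proteins build up in the ER, the sensors PERK, IRE1 and ATF6 are set off. PERK, like the amino acid sensor GCN2, phosphorylates the translation factor eIF2, which lowers general protein synthesis and lets ATF4 be translated. ATF4 then turns on genes that make, import and charge amino acids, while ATF6 and the spliced form of XBP1 turn on chaperones and degradation factors that clear the ER. Much of this control acts on translation, splicing and cleavage, and gene counts see none of these steps: they do not measure ATF4 protein or separate the spliced from the unspliced XBP1 message. Ovarian carcinoma cells secrete much glycoprotein and use these programmes under nutrient shortage.

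Promoter sequences are shown for members whose promoters hold a known ER stress or ATF4 element, since these set the ER members beside the amino acid members. RefSeq promoters, 250 bases before to 50 after a gene start on GRCh38.p14, were found for 30 of the 34 members; PSPH, SHMT2, ALDH1L2 and PYCR1 had no entry. The ER stress response element, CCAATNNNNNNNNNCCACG on either strand, lay in 6 of 14 ER members and in 0 of 7 amino acid members with a promoter, beside 0.092% of 27305 genes with a promoter, a gene counting once where any of its promoters matched. Its relative ERSE-II, ATTGGNCCACG, lay in 3 of 14 ER members, beside 0.070% of genes. The unfolded protein response element TGACGTGG lay in HYOU1 alone among the members, overlapping an ERSE-II, beside 0.927% of genes. The C/EBP-ATF response element TGATGNAA, known as a site of ATF4 dimers, lay in 5 of 30 members (ASNS, SLC3A2, SLC7A1, CHAC1 and HERPUD1), beside 4.457% of genes; that is 3 of 7 amino acid and 1 of 14 ER members with a promoter. A match is a description of letters, not a proven site. The members were listed as genes of these responses, so a high share among them is no independent result. All motifs were searched on both strands. The stretches hold matches upstream of the RefSeq start of some ER members described below and of ASNS, with the matched letters in capitals. ASNS was too low to be tested in SKOV3. The matches of SLC7A1 and SLC3A2 lie after the start and are not printed. A match on the other strand reads as its reverse complement.
HSPA5 (chr9:125241366-125241434, minus strand): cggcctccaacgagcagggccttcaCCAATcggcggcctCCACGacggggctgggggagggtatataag
XBP1 (chr22:28800578-28800646, minus strand): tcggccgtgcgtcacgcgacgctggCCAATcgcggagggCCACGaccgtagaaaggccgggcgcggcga
CALR (chr19:12938359-12938427, plus strand): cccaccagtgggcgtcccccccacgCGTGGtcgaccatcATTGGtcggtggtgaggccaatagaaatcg
HSP90B1 (chr12:103930191-103930364, plus strand): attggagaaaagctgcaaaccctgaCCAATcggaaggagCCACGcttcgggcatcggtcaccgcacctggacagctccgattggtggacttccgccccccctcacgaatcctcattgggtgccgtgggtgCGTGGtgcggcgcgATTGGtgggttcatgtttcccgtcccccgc
SDF2L1 (chr22:21642089-21642149, plus strand): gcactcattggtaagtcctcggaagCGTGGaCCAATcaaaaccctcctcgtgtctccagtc
HYOU1 (chr11:119057249-119057418, minus strand): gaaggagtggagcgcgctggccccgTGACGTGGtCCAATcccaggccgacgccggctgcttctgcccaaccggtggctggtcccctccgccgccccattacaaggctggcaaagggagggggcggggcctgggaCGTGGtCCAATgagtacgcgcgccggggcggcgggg
HERPUD1 (chr16:56931941-56932060, plus strand): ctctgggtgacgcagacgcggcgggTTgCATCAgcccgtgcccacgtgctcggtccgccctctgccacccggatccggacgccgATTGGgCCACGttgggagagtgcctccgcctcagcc
ASNS (chr7:97872444-97872501, minus strand): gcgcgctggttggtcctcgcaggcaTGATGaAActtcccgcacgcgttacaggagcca

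In HSPA5, XBP1 and the first match of HSP90B1 the capitals read CCAAT and then CCACG, while CALR and the second HSP90B1 match carry the same element on the opposite strand. SDF2L1, HYOU1 and HERPUD1 carry ERSE-II, in HYOU1 in 2 copies, the first of which runs into the unfolded protein response element. HERPUD1 holds both kinds of match, the ATF4 element and ERSE-II, and ASNS the ATF4 element alone.

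SKOV3 libraries held 15194678 to 18748009 counts and OVCAR3 libraries 18160558 to 24026993, and the members took 0.665% to 0.744% of them. RSF1 itself stood at 459 to 509 CPM (counts scaled to library size, with TMM factors) with RSF1delUAB, 631 to 775 CPM with RSF1 and 42.2 to 47.5 CPM in the control. These levels set both constructs apart from the control, but counts per gene cannot show which construct lacks the UAB region. The counts give the UAB peptide no value of its own, so the OVCAR3 labels were not checked this way. Replicate 1 of RSF1 stood apart from the other SKOV3 libraries, where chi-square over degrees of freedom was 14.4 and 16.4 against its replicates and 2.27 to 3.94 for the other pairs; the pairs within the OVCAR3 groups gave 12.99 and 15.3. The keratin genes KRT8 and KRT18 and the Muellerian factor PAX8 were present in both lines; CDH1 was at 0.26 to 0.63 CPM and MUC16 at 0.00 to 0.08 CPM in the SKOV3 groups, and the 4 immune markers summed to 0.185 to 0.929 CPM in SKOV3 libraries, 1.53 to 1.67 CPM with UAB and 7.10 to 8.30 CPM with scramble. ERBB2 averaged 7567 CPM with RSF1delUAB, 2493 CPM with RSF1 and 8430 CPM in the control. Mitochondrially encoded genes took 4.39% to 5.21% of counts with RSF1delUAB, 4.12% to 4.33% with RSF1 and 3.51% to 3.59% in the control. All results below come from edgeR's quasi-likelihood test, with p adjusted by Benjamini-Hochberg over 16735 genes in SKOV3 and 18359 in OVCAR3; "rose" and "fell" are kept for adjusted p under 0.05, and fold changes are log2 with their standard error (SE).

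Levels per length ranged widely among the members. In SKOV3 control libraries CALR, the ER lectin chaperone calreticulin, stood highest at 323 CPM per kilobase of exon, ahead of HSPA5 at 172 and HSP90B1 at 113. The length counts all listed exons of a gene, 2802 bases for CALR, 6530 for HSPA5 and 13092 for HSP90B1. This order rests on that length: in CPM alone it was reversed, with HSP90B1 first, then HSPA5, then CALR. At the other end ASNS stood at 0.107, STC2 at 0.0739 and ALDH1L2 at 0.166 CPM per kilobase. The tables of the lines were scaled separately, so levels across them are a description with no test. STC2 had 19.8 and 22.9 CPM per kilobase in the UAB and scramble groups of OVCAR3, and PHGDH 59.4 and 63.8, while PHGDH had 2.96 in the SKOV3 control. Of the 34 members, 24 had a higher mean CPM in OVCAR3 scramble than in SKOV3 control libraries and 10 a lower one, with EDEM1 and DNAJC3 among those 10. The share of all genes with a higher mean was not computed, so these counts cannot be read as particular to the members.

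**Figure D1:**
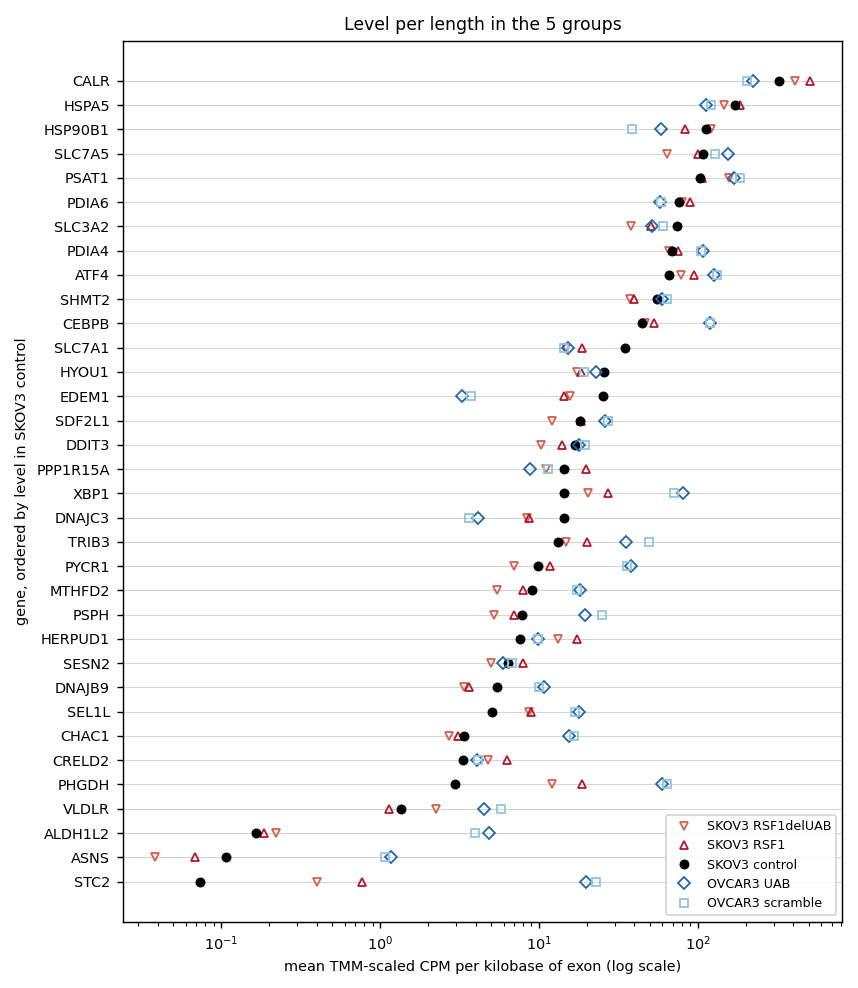
Mean TMM-scaled CPM per kilobase of exon (log axis) of each member in the 5 groups, ordered by the SKOV3 control. On this scale, which depends on the listed exon length, CALR leads in every group, from 204 in OVCAR3 scramble to 506 in SKOV3 RSF1. STC2, PHGDH and ALDH1L2 lie far to the right in OVCAR3.

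Most members were lower with RSF1delUAB than with RSF1 in SKOV3: 21 of 33 tested members fell, 3 rose and 9 did not pass. Among all genes tested, 18.5% fell and 20.2% rose. The median log2 fold change of the members was -0.32, where that of all genes was -0.0017. Stress regulators, enzymes, transporters and ER chaperones were all among the genes that fell, and only PSAT1, VLDLR and HSP90B1 rose. Called members ranged from -0.94 to 0.97. The groups did not overlap in 24 of 33 members, beside 46.9% of all genes.

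**Figure D2:**
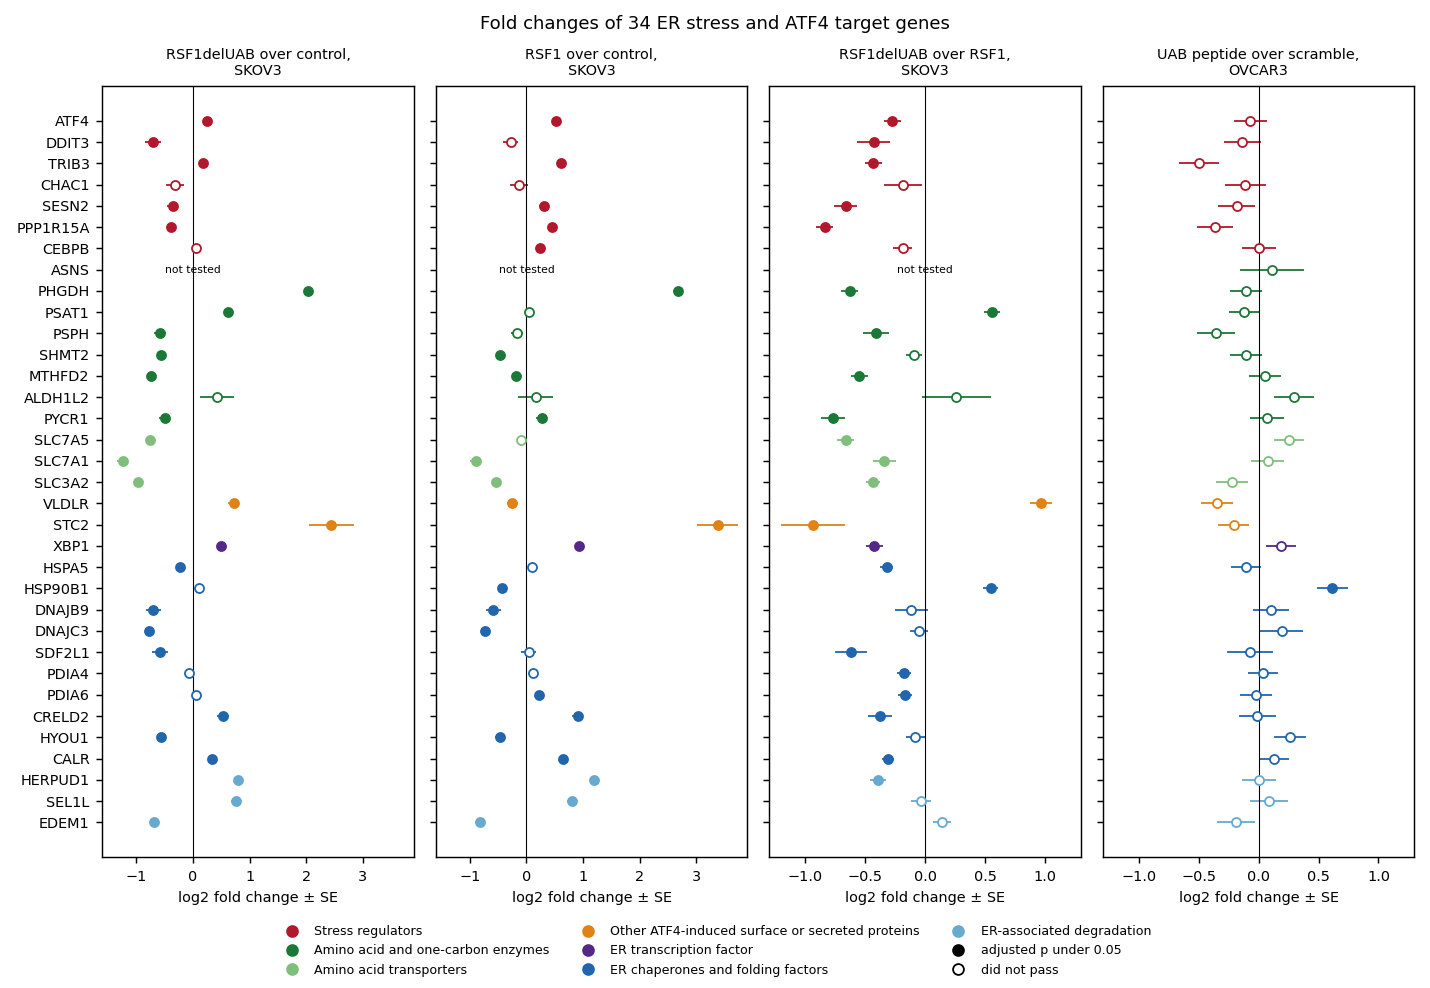
Log2 fold change ± SE of each member (rows, coloured by role) in the 4 comparisons (panels, each with its own axis); filled points passed adjusted p under 0.05. In the RSF1delUAB over RSF1 panel 21 filled points lie left of 0 and 3 right of it; in OVCAR3 the single filled point is HSP90B1.

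Against the control vector each construct moved members in both directions, on a background in which most genes moved. With RSF1delUAB 11 of 33 tested members rose and 16 fell, where 34.5% of all genes rose and 32.1% fell; with RSF1 14 rose and 10 fell, where 34.3% rose and 32.9% fell. The medians were -0.23 and 0.093, where all genes had 0.015 in both. The groups did not overlap in 30 and 26 of the 33, beside 72.9% and 69.0% of all genes. The shares called are near the background apart from the 48.5% that fell with RSF1delUAB. Without replicate 1 of RSF1, 12 rose and 10 fell with RSF1. Both comparisons share the control libraries. The amino acid group had 2 rises and 7 falls of 10 tested with RSF1delUAB (median -0.57), and 2 rises and 4 falls with RSF1 (median -0.13). The ER group had 5 rises and 6 falls of 14 with RSF1delUAB (median -0.0063), and 6 rises and 5 falls with RSF1 (median 0.10). With the median log2 fold change of all genes on a gene's chromosome arm subtracted (set against the arm, in what follows), the amino acid medians were -0.48 and -0.0048 and the ER medians -0.14 and -0.010.

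Of the 7 stress regulators, 5 fell in RSF1delUAB against RSF1 and 2 did not pass, where 18.5% of all genes fell and 20.2% rose. PPP1R15A, the phosphatase subunit GADD34 that restores eIF2, had 36.4, 37.8 and 39.5 CPM with RSF1delUAB, 68.8, 68.2 and 66.3 CPM with RSF1 and 47.9, 51.2 and 49.7 CPM in the control. The 3 groups did not overlap: RSF1 was highest and RSF1delUAB lowest, with the control between them. The fall against RSF1 was -0.84 ± 0.071 (SE; edgeR adjusted p = 9.71e-09). Against the control it fell by 0.39 with RSF1delUAB and rose by 0.45 with RSF1. The gene lies on 19q, whose median was 0.52 and 0.67 in those comparisons, and set against the arm the second value was -0.22. SESN2, a leucine-sensing inhibitor of mTORC1, showed the same order, at 17.3 ± 0.693 CPM with RSF1delUAB, 27.5 ± 2.15 CPM with RSF1 and 22.2 ± 1.72 CPM in the control (SD, n = 3 each), and fell by 0.66 against RSF1.

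ATF4 (ENSG00000128272, chr22:39519695-39522683, GRCh38), the master regulator of the amino acid branch, had 213, 200 and 200 CPM with RSF1delUAB, 275, 228 and 239 CPM with RSF1 and 178, 173 and 166 CPM in the control. No 2 of these groups overlapped, and replicate 1 of RSF1 was the highest library. ATF4 fell in RSF1delUAB against RSF1 by 0.27 on the log2 scale (SE 0.071, edgeR adjusted p = 0.0043). Against the control it rose by 0.25 with RSF1delUAB and by 0.52 with RSF1. The median of the 388 genes tested on 22q was 0.95 and 0.94 in those comparisons, and ATF4 set against its arm stood at -0.70 and -0.42, the opposite direction. Between the constructs the 22q median was -0.0021.

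DDIT3 (ENSG00000175197, chr12:57516588-57521737), the death-linked factor CHOP, had 12.5, 15.6 and 12.7 CPM with RSF1delUAB, 23.1, 15.9 and 15.97 CPM with RSF1 and 23.9, 21.4 and 21.1 CPM in the control. The RSF1delUAB libraries were the lowest, while in the RSF1 group replicate 1 stood with the control and the other 2 libraries near RSF1delUAB. The fall against the control was -0.70 ± 0.14 (edgeR adjusted p = 0.000121), and that against RSF1 -0.43 ± 0.14 (edgeR adjusted p = 0.0171). Without replicate 1 of RSF1 the second of these calls was lost (-0.23, edgeR adjusted p = 0.126), and it was also lost without replicate 1 or replicate 3 of RSF1delUAB (edgeR adjusted p = 0.0811 and 0.0679). Without that same RSF1 library DDIT3 fell in RSF1 against control, by 0.48, where it otherwise did not pass (-0.27, and 0.16 when set against 12q). Of its exon bases, 31.6% lie opposite another gene, with MARS1 facing 27.2%, and the strand setting of the counting is not given in the sources used here.

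TRIB3, the pseudokinase that restrains ATF4, stood at 49.0 ± 1.14 CPM with RSF1delUAB, 66.1 ± 2.66 CPM with RSF1 and 43.3 ± 1.85 CPM in the control (SD, n = 3 each). It rose by 0.61 with RSF1 and fell by 0.43 in RSF1delUAB against RSF1; its rise of 0.18 with RSF1delUAB was lost without replicate 2 or 3 of RSF1delUAB or replicate 1 or 3 of the control. CHAC1, which degrades glutathione, and CEBPB, a partner of ATF4 on DNA, did not pass between the constructs, at -0.18 and -0.19; without replicate 2 or replicate 3 of RSF1 the fall of CEBPB passed, at -0.25 and -0.24. Against the control, 5 of the 7 regulators rose with RSF1; with RSF1delUAB 2 rose and 3 fell. Of all genes 34.3% rose with RSF1, and 34.5% rose and 32.1% fell with RSF1delUAB, so the second pair of counts is near the background. The rise of CEBPB with RSF1 (0.24) was lost without replicate 1 of RSF1 or replicate 3 of the control. That of TRIB3 with RSF1delUAB was also lost when set against its arm (0.16). Among the rises with RSF1, those of ATF4 (-0.42) and PPP1R15A (-0.22) became falls when set against their arms.

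The amino acid group fell in RSF1delUAB against RSF1 in 7 of its 10 tested members, rose in 1 and did not pass in 2. Its median was -0.42, and 18.5% of all genes fell and 20.2% rose. All 3 transporters fell. SLC7A5, the large neutral amino acid transporter LAT1, had 309, 284 and 317 CPM with RSF1delUAB, 440, 482 and 520 CPM with RSF1 and 521, 535 and 487 CPM in the control. The RSF1delUAB libraries lay below all others, and the RSF1 and control libraries overlapped. Its fold change was -0.66 ± 0.069 against RSF1 (edgeR adjusted p = 1.91e-07) and -0.76 ± 0.069 against the control (edgeR adjusted p = 6.39e-09). It was -0.098 for RSF1 over control, which did not pass; set against 16q, with a median of 0.46, SLC7A5 fell there too (-0.56). SLC3A2, the heavy chain that carries LAT1 to the membrane, had 242 ± 5.89 CPM with RSF1delUAB, 327 ± 20.8 CPM with RSF1 and 477 ± 12.9 CPM in the control (SD, n = 3 each), falls of 0.98 and 0.54 against the control.

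SLC7A1 (ENSG00000139514, chr13:29509414-29595688), the arginine transporter CAT-1, had 109, 118 and 114 CPM with RSF1delUAB, 112, 160 and 160 CPM with RSF1 and 277, 271 and 258 CPM in the control. Both constructs lay far below the control, and replicate 1 of RSF1 lay within the RSF1delUAB range. The fold change over control was -1.24 ± 0.098 for RSF1delUAB (edgeR adjusted p = 7.39e-10) and -0.90 ± 0.097 for RSF1 (edgeR adjusted p = 7.78e-08). The 13q median was -0.70 and -0.60 in these comparisons, and set against it SLC7A1 still fell, by 0.54 and 0.29. Against RSF1 the fall of 0.34 was lost without replicate 2 of RSF1 (-0.27, edgeR adjusted p = 0.0506) and when set against the 13q arm (-0.25, edgeR adjusted p = 0.0524).

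The enzymes of serine synthesis did not move together. PHGDH (ENSG00000092621, chr1:119648411-119744218), the first enzyme of serine synthesis, had 116, 109 and 109 CPM with RSF1delUAB, 183, 164 and 170 CPM with RSF1 and 28.7, 27.7 and 25.1 CPM in the control. The 3 groups did not overlap, with the control lowest and RSF1 highest. The log2 fold change over control was 2.04 ± 0.076 for RSF1delUAB and 2.67 ± 0.076 for RSF1, and PHGDH fell by 0.63 in RSF1delUAB against RSF1 (edgeR adjusted p = 3.43e-07). PSAT1, the next enzyme, was 347 ± 14.2 CPM with RSF1delUAB, 236 ± 14.9 CPM with RSF1 and 227 ± 14.2 CPM in the control, and PSPH, the last, was at 14.5 ± 1.82, 19.2 ± 1.48 and 21.6 ± 0.872 CPM in the same groups (SD, n = 3 each). PSAT1 rose in RSF1delUAB, by 0.56 against RSF1 and 0.61 against the control, while PSPH fell, by 0.41 and 0.58.

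The mitochondrial one-carbon enzyme MTHFD2 was at 62.1 ± 2.16 CPM with RSF1delUAB, 91.0 ± 6.84 CPM with RSF1 and 104 ± 2.55 CPM in the control (SD, n = 3 each), and fell by 0.55 against RSF1 and 0.74 against the control. Its small fall with RSF1 over control, -0.19, was lost without replicate 3 of RSF1 or without replicate 1 or 3 of the control. SHMT2, which feeds the same pathway, fell against the control with RSF1delUAB (-0.57) and RSF1 (-0.47). Against its own 12q arm, whose median was -0.20 and -0.43, the RSF1 value was -0.038 and did not pass. Between the constructs SHMT2 did not pass, but it fell when set against 12q (-0.32, edgeR adjusted p = 0.000481). PYCR1, the last enzyme of proline synthesis, fell by 0.77 in RSF1delUAB against RSF1; its rise of 0.27 in RSF1 against the control was lost when any of RSF1 replicates 1 and 3 or control replicates 1 and 3 was left out. Of PYCR1 exon bases, 14.1% are shared with another gene on the same strand.

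ASNS (ENSG00000070669, chr7:97851677-97872542), the asparagine synthetase that is a textbook ATF4 target, was near 0 in SKOV3. It had 0.16, 0.35 and 0.062 CPM with RSF1delUAB, 0.065, 0.51 and 0.44 CPM with RSF1 and 0.40, 0.53 and 0.65 CPM in the control. These are 10, 16 and 24 counts over each group of 3 libraries, under the filter of edgeR, so ASNS was not tested there. In OVCAR3 it stood at 7.01 and 4.42 CPM with UAB and 4.57 and 6.05 CPM with scramble. Of its exon bases, 49.3% are shared on the same strand with ENSG00000284707, which had 1 to 26 counts in SKOV3 and 22 to 43 in OVCAR3; how reads over both were counted is not given in the sources used here, so its level is uncertain. ALDH1L2, a mitochondrial folate enzyme, was also low in SKOV3, at 1.26 to 2.95 CPM, and did not pass in any comparison.

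**Figure D3:**
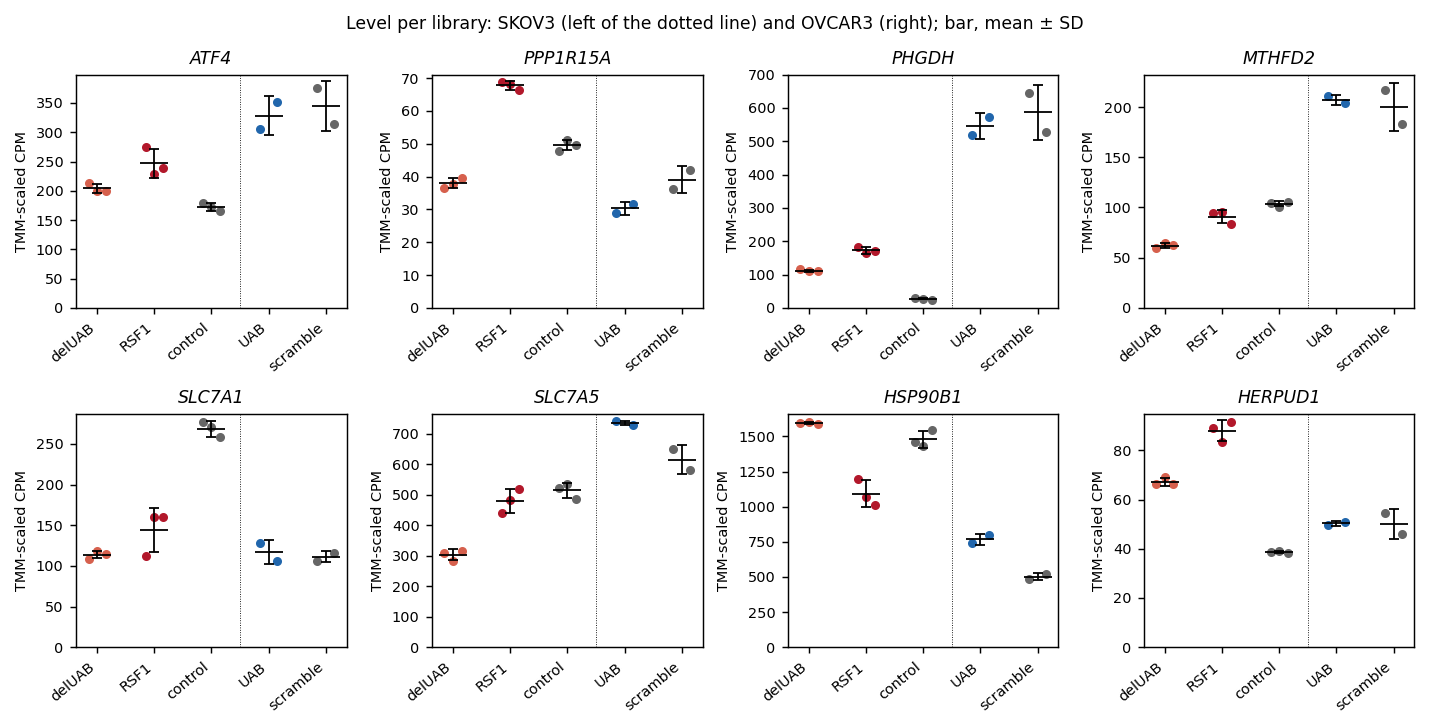
TMM-scaled CPM in each library (points) with mean ± SD (bars) for 8 members, with SKOV3 left and OVCAR3 right of the dotted line. PPP1R15A and SLC7A5 are lowest in RSF1delUAB among the SKOV3 groups, PHGDH is lowest in the SKOV3 control, and HSP90B1 is higher in UAB (742 and 798 CPM) than in scramble (486 and 519 CPM).

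In the ER group 8 of 14 members fell in RSF1delUAB against RSF1, 1 rose and 5 did not pass, with a median of -0.17. The shares among all genes tested were 18.5% lower and 20.2% higher. HSPA5 (ENSG00000044574, chr9:125234853-125241382), the chaperone BiP that holds the stress sensors inactive, had 961, 966 and 959 CPM with RSF1delUAB, 1255, 1161 and 1187 CPM with RSF1 and 1164, 1111 and 1104 CPM in the control. The RSF1delUAB libraries lay close together and below all others, and the RSF1 and control libraries overlapped. The fold change was -0.32 ± 0.054 over RSF1 (edgeR adjusted p = 8.34e-05) and -0.23 ± 0.054 over control (edgeR adjusted p = 0.000986). For RSF1 over control it was 0.093, which did not pass but passed under other scalings (0.17 with upper-quartile scaling, 0.15 with library totals alone).

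HSP90B1 (ENSG00000166598, chr12:103930107-103953931), the ER member of the HSP90 family known as GRP94, was the only ER member that rose in that comparison. It had 1597, 1604 and 1586 CPM with RSF1delUAB, 1198, 1067 and 1013 CPM with RSF1 and 1462, 1432 and 1543 CPM in the control. RSF1 was lowest and RSF1delUAB highest, with no overlap, but RSF1delUAB over control did not pass. That value was 0.087 to 0.14 with 1 library left out. It passed under some alternatives (0.15 with upper-quartile scaling, 0.31 when set against 12q). HSP90B1 rose by 0.55 ± 0.062 in RSF1delUAB against RSF1 (edgeR adjusted p = 5.62e-07) and fell by 0.44 in RSF1 against the control. The gene lies on 12q, whose median was 0.23 in the first of these and -0.43 in the second; set against the arm the values were 0.32, which passed, and -0.0020, which did not. HSP90B1 and HSPA5, which share the ER stress response element printed above, moved in opposite directions between the constructs.

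XBP1 (ENSG00000100219, chr22:28794555-28800597) had 61.1, 60.7 and 62.8 CPM with RSF1delUAB, 86.4, 80.5 and 80.5 CPM with RSF1 and 42.0, 43.7 and 44.8 CPM in the control. The groups were well apart, with RSF1 highest. The fall in RSF1delUAB against RSF1 was -0.42 ± 0.068 (edgeR adjusted p = 4.56e-05). Over control XBP1 rose by 0.50 and 0.92 for RSF1delUAB and RSF1, but it too lies on 22q: set against the arm these values were -0.45 and -0.018. CRELD2 (0.52 and 0.90 over control, -0.43 and -0.039 against the arm) and SDF2L1 (-0.58 and 0.038, the second of which did not pass and stood at -0.90 against the arm) are on the same arm. Of the 4 members on 22q, all 4 lay below the arm's median in both comparisons.

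**Figure D4:**
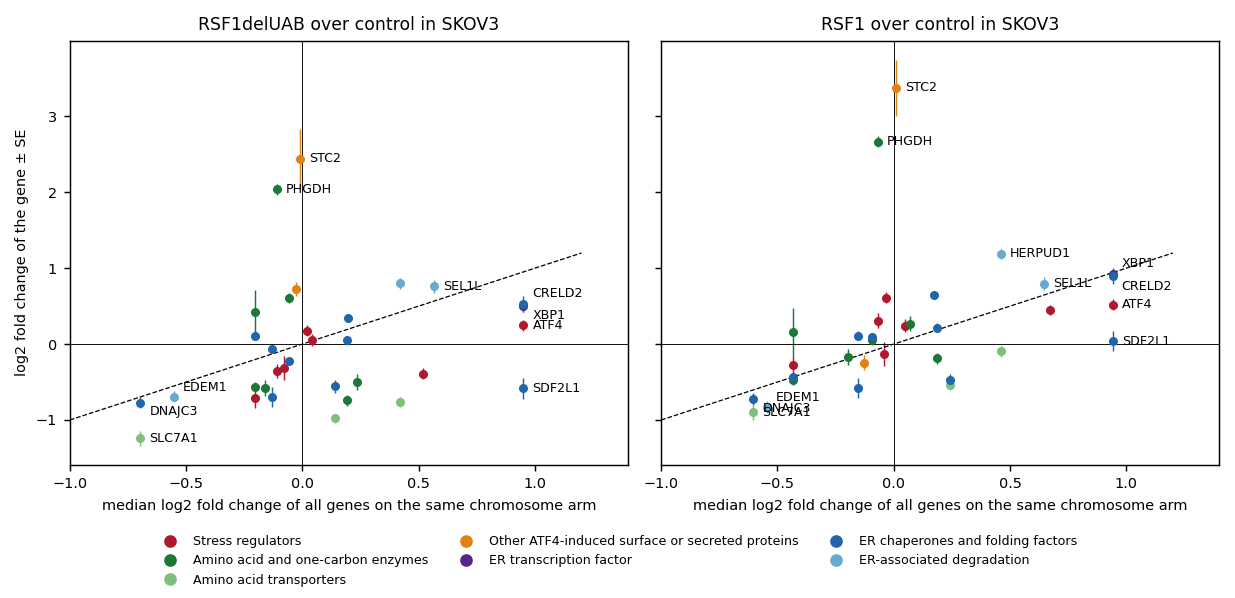
Log2 fold change ± SE of each member over control (vertical) against the median log2 fold change of all genes on its chromosome arm (horizontal), for RSF1delUAB (left) and RSF1 (right); the dashed line marks equality. ATF4, XBP1, CRELD2 and SDF2L1 sit at the right, where the 22q median is 0.95 and 0.94, and below the line; STC2 and PHGDH lie far above it.

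Among other ER members CALR rose over control by 0.34 with RSF1delUAB and 0.65 with RSF1 and fell by 0.31 in RSF1delUAB against RSF1. HERPUD1 (ENSG00000051108, chr16:56932142-56944864), a scaffold of ER-associated degradation, had 66.4, 69.0 and 66.2 CPM with RSF1delUAB, 89.1, 83.5 and 91.5 CPM with RSF1 and 38.7, 38.9 and 38.3 CPM in the control. The 3 groups were far apart, RSF1 highest and the control lowest. The log2 fold change was 0.80 ± 0.070 for RSF1delUAB over control (edgeR adjusted p = 3.96e-09), 1.19 ± 0.070 for RSF1 over control and -0.39 ± 0.067 between the constructs, with a 16q median of 0.42 and 0.46 over control, against which it still rose by 0.38 and 0.73. SEL1L, the adaptor of the HRD1 ligase, rose by 0.76 and 0.80 over control, beside a 14q median of 0.56 and 0.64, and no longer passed when set against that arm. EDEM1, a mannosidase-like factor that hands glycoproteins to degradation, fell by 0.69 and 0.83, beside a 3p median of -0.55 and -0.54, and the first of these no longer passed against the arm (-0.14).

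The chaperone partners DNAJC3 and DNAJB9 and the nucleotide exchange factor HYOU1 fell with both constructs against control, by 0.77 and 0.72, by 0.70 and 0.58, and by 0.56 and 0.48 for RSF1delUAB and RSF1. None of them passed between the constructs. DNAJC3 lies on 13q and did not pass when set against that arm, and HYOU1 passed as lower in RSF1delUAB than in RSF1 without replicate 1 of RSF1 (-0.18, edgeR adjusted p = 0.013). SDF2L1, a BiP cofactor, was 12.8 ± 0.788 CPM with RSF1delUAB, 19.7 ± 3.80 CPM with RSF1 and 19.1 ± 2.92 CPM in the control (SD, n = 3 each), a fall of 0.62 against RSF1. The disulfide isomerases PDIA4 and PDIA6 fell by 0.17 each in RSF1delUAB against RSF1, and both calls were lost when any 1 RSF1delUAB library was left out.

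The 9 ER members with an ER stress response element or ERSE-II in the promoter (XBP1, HSPA5, HSP90B1, SDF2L1, PDIA6, CRELD2, HYOU1, CALR and HERPUD1) had 7 falls, 1 rise and 1 that did not pass between the constructs, with a median of -0.32. The other 5 (DNAJB9, DNAJC3, PDIA4, SEL1L and EDEM1) had 1 fall and 4 that did not pass, with a median of -0.049. Between the constructs 18.5% of all genes fell and 20.2% rose. The difference between these subsets was not tested. Over control the 9 had 4 rises and 3 falls with RSF1delUAB and 5 rises and 2 falls with RSF1 (medians 0.11 and 0.22), and the other 5 had 1 rise and 3 falls with each (medians -0.69 and -0.58). Of all genes 34.5% rose and 32.1% fell with RSF1delUAB, and 34.3% rose and 32.9% fell with RSF1.

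The other secreted and surface targets of ATF4 parted from each other. STC2 (ENSG00000113739, chr5:173314723-173328447), a secreted glycoprotein hormone, had 2.39, 2.02 and 1.72 CPM with RSF1delUAB, 3.91, 3.87 and 4.02 CPM with RSF1 and 0.73, 0.27 and 0.13 CPM in the control. The control libraries held 2 to 11 counts, and the groups did not overlap. The fitted log2 fold change over control was 2.44 ± 0.40 and 3.37 ± 0.37, and -0.94 ± 0.27 between the constructs (edgeR adjusted p = 0.00899). Without replicate 1 of the control, the library with the most counts in that group, the values over control were 3.34 and 4.27. VLDLR, a lipoprotein receptor, was 37.1 ± 2.54 CPM with RSF1delUAB, 19.0 ± 1.13 CPM with RSF1 and 22.5 ± 1.97 CPM in the control (SD, n = 3 each), a rise of 0.97 against RSF1 and of 0.72 against the control. Its fall of 0.25 with RSF1 against control was lost when any 1 of RSF1 replicates 1 and 3 or control replicates 1 and 2 was left out.

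The difference between the constructs goes along with other measured differences between these libraries. RSF1 RNA itself was lower in RSF1delUAB than in RSF1, by 0.56 on the log2 scale, and the mitochondrial share of counts was higher. Of 6 fibroblast markers, 4 had a higher mean in RSF1delUAB than in RSF1, led by LUM (80.5 CPM with RSF1delUAB, 21.3 CPM with RSF1 and 0.591 CPM in the control). The list summed to 120 to 132 CPM, 52.0 to 53.9 CPM and 6.29 to 7.30 CPM over the libraries of these groups, with PDGFRB at 0 in RSF1delUAB and control. The 3 plasma cell markers, genes of cells with a high ER load, summed to 286 to 322 CPM with RSF1delUAB, 198 to 205 CPM with RSF1 and 321 to 361 CPM in the control, nearly all of it SDC1. The 6 epithelial markers summed to 1352 to 1452 CPM, 1304 to 1544 CPM and 807 to 849 CPM in the same groups, and the 5 ovarian line markers to 7588 to 8076 CPM, 2510 to 3239 CPM and 8536 to 9246 CPM, led by ERBB2. Their part in the result was not tested. Without replicate 1 of RSF1, 21 members fell and 3 rose, as with it, and the same counts were found with each gene set against its arm, where 23 of the 24 called genes were shared.

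**Figure D5:**
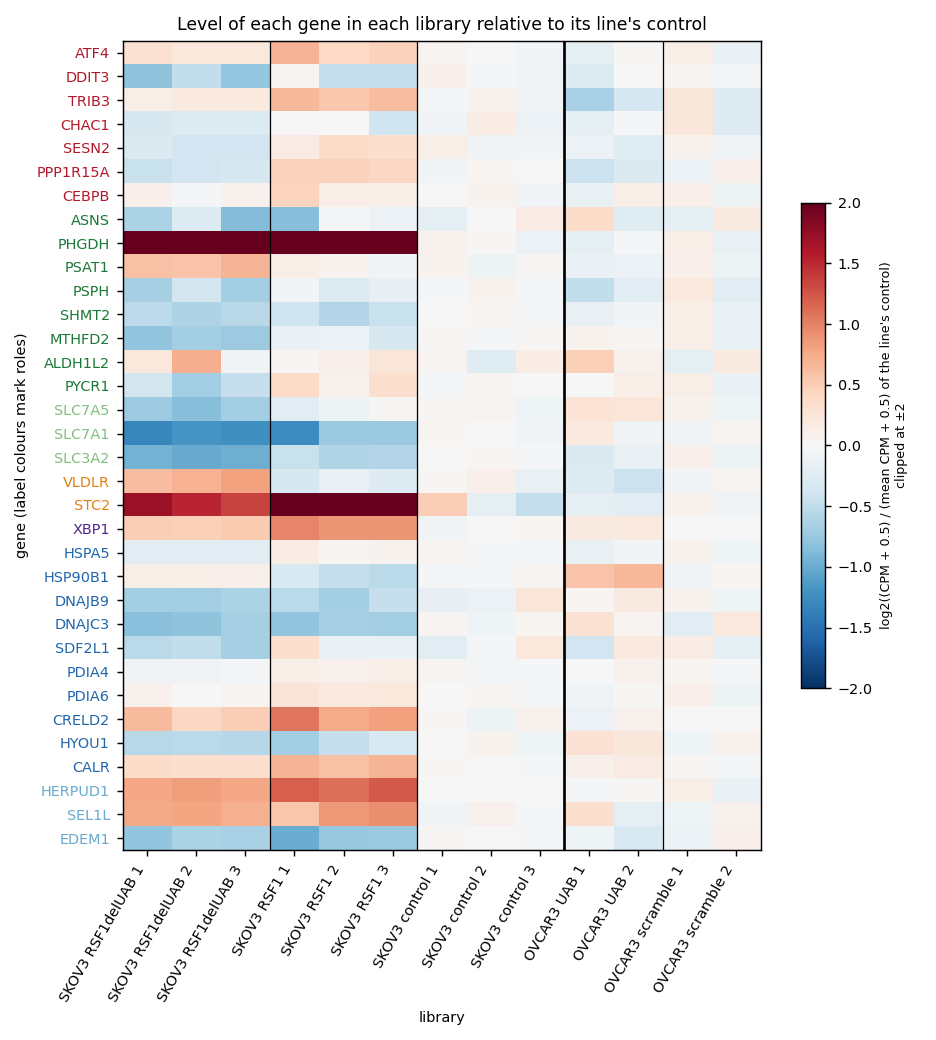
Level of each member in each library as log2 of (CPM + 0.5) over (mean CPM + 0.5) of the control of its line, clipped at ±2; row labels are coloured by role (red regulators, green amino acid enzymes, light green transporters, orange VLDLR and STC2, purple XBP1, blue chaperones, light blue degradation). PHGDH is high in all 6 construct libraries, SLC7A1 and SLC3A2 are low in them, and in OVCAR3 HSP90B1 is high in both UAB libraries.

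With the UAB peptide in OVCAR3, 1 of 34 members passed, where 5.45% of all genes rose and 5.46% fell. HSP90B1 rose, at 742 and 798 CPM with UAB and 486 and 519 CPM with scramble. The UAB libraries were both higher, by 0.62 ± 0.13 on the log2 scale (edgeR adjusted p = 0.00526), and the call held with each library left out in turn (edgeR adjusted p = 0.00461 to 0.042). Mitochondrially encoded genes took 6.22% to 6.57% of counts with UAB and 7.23% to 7.48% with scramble. The 4 immune markers summed to 1.53 to 1.67 CPM with UAB and 7.10 to 8.30 CPM with scramble, most of it CD14. The part of these in the result was not tested. The HSP90B1 pseudogene HSP90B2P, whose reads could be confused with those of the gene, had 2 to 12 counts per OVCAR3 library. No other member passed, and 5 members, HSP90B1 included, had an unadjusted p under 0.05; the lowest adjusted p among the rest was 0.0708, for TRIB3.

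TRIB3 stood at 104 and 127 CPM with UAB and 191 and 136 CPM with scramble. Scramble replicate 1 was the highest library, and the groups did not overlap. The fold change was -0.50 ± 0.17, and it passed without scramble replicate 2 (-0.72, edgeR adjusted p = 0.00238) or without UAB replicate 2 (-0.65, edgeR adjusted p = 0.0117), in fits where the lone library is assumed to vary like the others. ATF4 was 305 and 352 CPM with UAB and 375 and 315 CPM with scramble, DDIT3 20.98 and 25.6 CPM and 26.2 and 24.9 CPM in the same groups, and both overlapped. HSPA5 at 715 and 758 CPM with UAB overlapped 835 and 747 CPM with scramble. XBP1, at 242 and 246 CPM with UAB and 213 and 216 CPM with scramble, did not overlap but did not pass (0.19 ± 0.13, edgeR adjusted p = 0.385). SLC7A5 was likewise higher in both UAB libraries, 740 and 730 CPM against 649 and 582 CPM with scramble, without passing (0.26 ± 0.12, edgeR adjusted p = 0.22). In all, 13 of 34 members did not overlap between the groups, beside 54.1% of all genes.

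Other genes of the same pathways were read from lists chosen with earlier results known. Between the SKOV3 constructs, 15 of 18 cytosolic tRNA synthetases, which charge tRNAs and are ATF4 targets in part, fell in RSF1delUAB against RSF1 and 3 did not pass (median -0.29), where 18.5% of all genes fell and 20.2% rose. Of 9 further amino acid transporters 3 fell and 3 rose, and of 16 further amino acid and one-carbon enzymes 4 fell and 3 rose (median -0.066). The synthetases with the smallest p were TARS1 at -0.66 (283 CPM with RSF1delUAB, 448 CPM with RSF1) and IARS1 at -0.51 (186 and 264 CPM in the same groups). Over control 13 of them fell and 3 rose with RSF1delUAB, and 8 fell and 5 rose with RSF1, where 32.1% of all genes fell and 34.5% rose, and 32.9% fell and 34.3% rose. Of 16 further ER folding factors, 7 fell and 9 did not pass between the constructs, with TXNDC11 at -0.60 and DNAJB11 at -0.39, and of 9 mitochondrial chaperones and proteases 5 fell and 4 did not pass. ER-associated degradation beyond the members, with 4 rises and 2 falls of 16, and the translocon, with 3 rises and 1 fall of 14, had 10 not passed each, counts near those shares of all genes between the constructs.

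Of 13 further ATF4-linked factors, 5 fell and 3 rose between the constructs, beside 18.5% and 20.2% of all genes. Their log2 fold changes ranged from -0.99 to 0.31. GDF15, a stress-induced cytokine also driven by p53, was 112 CPM with RSF1delUAB, 223 CPM with RSF1 and 9.31 CPM in the control, and fell by 0.99 in RSF1delUAB against RSF1. ATF5, a relative of ATF4, was 38.1, 67.3 and 62.8 CPM in the same groups and fell by 0.82. In OVCAR3 the same list had 2 rises and 2 falls of 14, beside 5.45% and 5.46% of all genes. ATF5 rose by 1.90 with the UAB peptide, to 51.3 CPM against 13.7 CPM with scramble, and ATF3, an early stress factor, fell by 1.34, at 9.01 CPM with UAB and 22.8 CPM with scramble. All 18 tRNA synthetases did not pass there, with 0 at an unadjusted p under 0.05, and nor did the 15 genes of the eIF2 kinases, eIF2 and eIF2B, with 5 at an unadjusted p under 0.05. Of 10 ER stress sensors and membrane-bound bZIP factors, 2 rose in OVCAR3 and 0 fell (median 0.32, range -0.39 to 1.67). Of 10 cytosolic heat shock genes 2 fell and 0 rose. The 16 further ER folding factors and the 9 mitochondrial chaperones and proteases had 1 fall each. Between the SKOV3 constructs the sensor list had 1 rise and 1 fall, with log2 fold changes from -1.50 to 0.21. The heat shock list had 2 rises and 4 falls there. Of all genes 20.2% rose and 18.5% fell. Other tools were not run on these lists.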

How the data were processed

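The authors deposited raw read counts per gene, 1 table for SKOV3 and 1 for OVCAR3, with no normalization. Per the submitters' processing notes, FastQC, STAR 2.7.9a and Subread were used and the builds GRCh38, hg38 and GRCm38 are named. Not given in the sources used here are the annotation release, the strand setting and the treatment of reads over several genes. The gene coordinates in the tables are on GRCh38. Of 62703 identifiers, 62625 matched a symbol, and 1 record broken over several lines was rejoined. Columns were matched to samples by name; 1 OVCAR3 control column carries an unexplained letter. Total counts were 15194678 to 24026993 per library. Each line was fitted once over all its groups with edgeR 4.0.16 (R 4.3.3): genes past filterByExpr with a minimum count of 10, TMM scaling, quasi-likelihood F tests, Benjamini-Hochberg adjustment over all genes tested and a threshold of 0.05. CPM values are TMM-scaled with no pseudocount, and the fold changes use a prior count of 0.125. Levels between genes are CPM per kilobase of the exon length in the tables. The standard error is the log2 fold change over the square root of F.

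The members and lists were chosen with earlier results of these data known. All 34 members are accounted for. Per-library values were set for ATF4, DDIT3, XBP1, HSPA5 and ASNS and for members called with a log2 fold change of at least 1 in size; those for HSP90B1, PPP1R15A, SLC7A5 and TRIB3 were added after their values were seen. Of the other lists, up to 2 rises and 2 falls with the smallest p in a comparison were named, and some lists are given without gene names. The fit was tested on simulated counts with 200 changed genes: for RSF1delUAB over control (16226 genes) 64.2% of 1.5-fold and 80.6% of 2-fold changes were recovered, and for UAB over scramble (17892 genes) 23.9% and 77.6%. The alternatives tried were other filters and scalings, limma-voom (limma 3.58.1), DESeq2 1.42.0, a test against a fold of 1.5, only the groups compared, the replicate number as a block, an offset per chromosome arm, and each library left out. The arm offset subtracts the median log2 fold change, over the control of the line, of the genes on a gene's chromosome arm. Between the constructs it therefore subtracts the difference between the arm's medians for RSF1delUAB and for RSF1 over control.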

Additional observations from a re-analysis of the deposited data

How the results depend on the processing

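Single members were followed over the alternatives for the 33 tested in SKOV3 and, in OVCAR3, only for ATF4, DDIT3, TRIB3, ASNS, SLC7A5, XBP1, HSPA5 and HSP90B1. Of these values 1640 kept direction and side of the threshold, 109 were no longer called, 24 became called and 27 changed sign; the cause was not tested. Against a fold of 1.5, calls were 4 higher and 5 lower (5188 among all genes, 11150 otherwise) for RSF1delUAB over control, 6 and 3 (5355, otherwise 11261) for RSF1 over control, 1 and 1 (1344, otherwise 6468) for RSF1delUAB over RSF1, and 0 higher (555, otherwise 2004) in OVCAR3. With the arm offset, 7 members were higher and 18 lower in RSF1delUAB over control, and 9 higher and 10 lower in RSF1 over control. It turned the sign over control in RSF1delUAB of ATF4 (-0.70), XBP1 (-0.45), PDIA4 (0.068), PDIA6 (-0.14) and CRELD2 (-0.43). In RSF1 it did so for ATF4 (-0.42), DDIT3 (0.16), PPP1R15A (-0.22), PSPH (0.028), XBP1 (-0.018), SDF2L1 (-0.90) and CRELD2 (-0.039). Between the constructs it did so for DNAJC3 (0.044), HYOU1 (0.018) and SEL1L (0.043), and among the 8 followed in OVCAR3 for ATF4 (0.013).

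Leaving out 1 library gave 10 to 11 higher and 16 lower members for RSF1delUAB over control (10455 to 10588 genes), 12 to 14 and 8 to 10 for RSF1 over control (10674 to 11633), 3 and 18 to 22 between the constructs (5461 to 7081), and 1 and 0 to 2 in OVCAR3 (1340 to 2239). The 2 falls in OVCAR3 came without scramble replicate 2. Signs changed for ALDH1L2 (-0.049 to 0.45), HYOU1 (-0.18 to 0.0071) and SEL1L (-0.14 to 0.035) between the constructs, for SDF2L1 (-0.13 to 0.16) and CHAC1 (-0.21 to 0.0066) in RSF1 over control, and for ATF4 (-0.19 to 0.061), ASNS (-0.26 to 0.40) and DDIT3 (-0.28 to 0.0081) among the 8 followed in OVCAR3.

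Same-numbered libraries did not deviate together (r -0.042 to 0.071 over 9 SKOV3 pairs, -0.149 in OVCAR3), so the numbers were not taken as pairs. In OVCAR3, at 2 libraries per group, deviations from the group mean mirror each other. Its 2 same-numbered pairs therefore give 1 value, and the crossed pairs its opposite, 0.149. With the replicate block, calls were 10 higher and 16 lower, 14 and 10, 3 and 21, and 1 and 0 (11007, 11164, 6333 and 1770 genes), in the order above. A crossed block in OVCAR3, chosen after seeing the data, called 4 members higher, 5 lower and 5097 genes. With no count filter 1 member was lower in OVCAR3 (TRIB3). At 2 libraries per group, OVCAR3 recovers few small changes in simulation. Members whose exons overlap other genes, such as ASNS and DDIT3, keep an uncertain count.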
